A study of Danio rerio with 16 samples.

Results

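Solute carriers are the membrane proteins that move small molecules across the cell surface and the membranes of mitochondria and other organelles, and their genes carry symbols that begin with slc or slco. The genes described here were chosen by symbol alone, as every named gene whose symbol starts with slc and a number or with slco, leaving out slc40a1. The rule took 243 of the 35853 genes in the table, and 93 of them reached a mean of at least 1 FPKM, the normalised read count per length of transcript and per library size, over the 16 liver libraries. Of the 150 below that mean, 43 were listed at 0 in every library and 19 reached 1 FPKM in at least 1 library.

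RNA-seq was made from zebrafish liver in 4 types of fish, HBx,Src(p53-), Src(p53-), HBx(p53-) and wild-type (WT) of the AB strain. The transgenic fish carry hepatitis B virus X (HBx), the Src kinase or both under the liver promoter of fabp10a, on a p53 mutant background that WT fish lack, so transgene and p53 mutation cannot be told apart against WT. Fish were 3 months old at the start and were fed for 8 weeks. The DIO diet was 2 ml of Artemia 3 times a day, the FAT diet added 0.22 g of high-fat food, given 3 times a day, to a single daily meal of 0.5 ml Artemia, and the normal diet (NOR) held that single Artemia meal without the high-fat food. A spoonful of powdered feed each morning was common to every group. HBx,Src(p53-) had 2 DIO and 2 NOR libraries, and Src(p53-), HBx(p53-) and WT each had 1 DIO, 1 FAT and 2 NOR libraries. DIO and FAT are called the obesity diet together, so outside HBx,Src(p53-) the 2 obesity libraries came from 2 different diets. The fish given for the sequencing equal the libraries in number, which makes each library 1 fish, although the labels do not say so.

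The families differ in what they carry and where. Members of slc25 sit mostly in the inner mitochondrial membrane and exchange nucleotides, phosphate, acylcarnitines, dicarboxylates, iron and cofactors between the matrix and the cytosol. The slc1, slc3, slc6, slc7, slc38 and slc43 families serve mainly amino acids, slc2, slc5, slc37 and slc50 serve sugars and sugar phosphates, and slc10, slc16, slc17, slc22, slc47, slc51 and slco serve organic anions and cations such as monocarboxylates, bile acids and drugs. In liver these carriers stand at the entry and exit points of fatty acid oxidation, gluconeogenesis, the urea cycle, bile acid circulation and detoxification.

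The libraries summed to between 812158 and 1218152 FPKM. The paper lists the mapped reads of each library, but the values used are FPKM and not counts. The number of reads behind each value is therefore unknown. Named genes held 54.7% of all FPKM. The Src label was checked with zebrafish src, which lay at 3.47, 14.6 and 47.3 FPKM (lowest, median and highest) in the 8 libraries of Src carriers and at 0, 2.10 and 4.24 FPKM in the 8 libraries of non-carriers (exact permutation test, two-sided p = 0.000932). Hepatocyte markers, of which 6 of 12 were matched, summed to between 10698 and 40644 FPKM per library. Of the other cell types checked, red blood cell markers summed to between 227 and 780 FPKM. The 7 of 8 matched heart markers summed to 4.90 to 19.9 FPKM in HBx,Src(p53-) and 4.54 to 15.7 in HBx(p53-) libraries, against at most 0.282 in Src(p53-) and 0.616 in WT libraries. This difference lay in the single gene myl7, at 4.12 to 19.7 FPKM in the HBx-carrying types. Myh6 reached at most 0.416 FPKM in any library, and cmlc1, tnnt2a, tnni1b, nppa and actc1a were listed at 0 throughout. The 9 of 14 matched exocrine pancreas markers summed to 20.3 to 247 FPKM in HBx,Src(p53-), 5.36 to 26.7 in Src(p53-), 14.8 to 124 in HBx(p53-) and 1.50 to 12.9 in WT libraries. The 6 of 7 matched ovary markers summed to 3.02 to 23.2 FPKM in HBx,Src(p53-) libraries, against at most 0.861 FPKM in any other library.

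The slc25 carriers were by far the most abundant family, because of a single gene. Their 33 genes included 18 at a mean of at least 1 FPKM. Slc25a5, an ADP/ATP carrier that exchanges mitochondrial ATP for cytosolic ADP, averaged 11442 FPKM. It ranged from 7642 FPKM in the WT FAT library to 14791 FPKM in a WT NOR library, and it held 86.7% to 93.9% of the slc25 sum and 68.7% to 83.0% of the sum of all 243 genes. The whole set held 1.14% to 1.96% of a library's FPKM, and without slc25a5 it summed to between 2276 and 4368 FPKM. Among named genes the other listed ADP/ATP carriers were close to absent, slc25a4 at a mean of 0.00566 FPKM and slc25a6 at 0.0300 FPKM. Entries without a name were not searched for them.

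**Figure D1:**
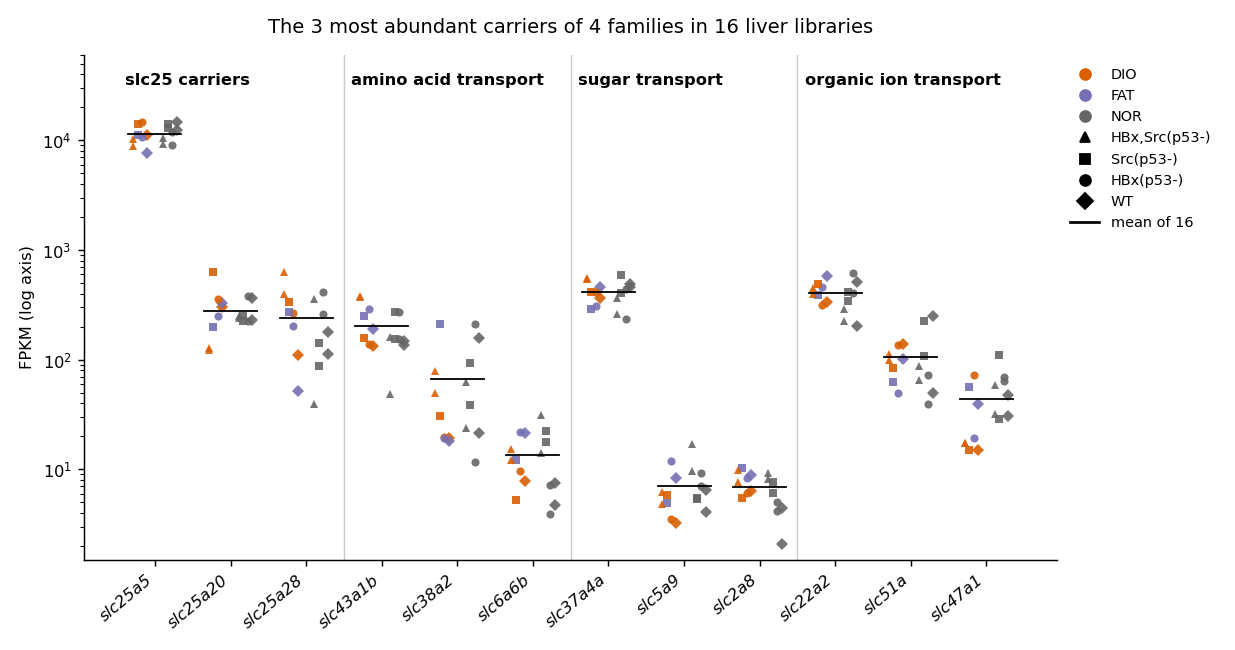
FPKM, on a log axis, of the 3 most abundant carriers of the slc25, amino acid, sugar and organic ion families in each of the 16 libraries; each point is a library, its colour gives the diet, its shape the type of fish, and the line the mean of 16. Slc25a5 lies far above the others at a mean of 11442 FPKM, and points of obesity and NOR libraries intermingle for most genes.

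Below slc25a5 the family means ranged from 1.03 to 279 FPKM. Slc25a20, which carries acylcarnitines into the matrix for fatty acid oxidation, averaged 279 FPKM, and slc25a28, the mitochondrial iron importer mitoferrin 2, averaged 241 FPKM. Slc25a33, a pyrimidine nucleotide carrier, averaged 151 FPKM, the phosphate carrier slc25a3b 134 FPKM and the dicarboxylate carrier slc25a10b 124 FPKM. At the lower end of the family, slc25a40, slc25a44a, slc25a38b and slc25a47b averaged 2.77, 1.65, 1.41 and 1.03 FPKM.

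Amino acid carriers were many but mostly low, with 17 of 49 at a mean of at least 1 FPKM and a family sum of 171 to 573 FPKM per library. Slc43a1b, a carrier of large neutral amino acids, led at 203 FPKM, followed by the glutamine and alanine importer slc38a2 at 66.5 FPKM and the taurine carrier slc6a6b at 13.4 FPKM. The sugar group was narrower, with 5 of 21 genes at a mean of at least 1 FPKM. Slc37a4a, which brings glucose 6-phosphate into the endoplasmic reticulum for the last step of glucose release, averaged 412 FPKM and made up most of the family sum of 260 to 613 FPKM. Slc5a9, known in human as a sodium-coupled mannose carrier, averaged 7.09 FPKM, and the intracellular glucose carrier slc2a8 6.83 FPKM. Organic ion carriers counted 14 of 44 at a mean of at least 1 FPKM and summed to 417 to 852 FPKM. Slc22a2, an organic cation carrier, averaged 402 FPKM, slc51a, a subunit of the bile acid exporter OST, averaged 105 FPKM, and the multidrug and toxin extruder slc47a1 averaged 43.4 FPKM.

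Of the other groups, the slc35 genes had 13 of 18 at a mean of at least 1 FPKM. Many of these are nucleotide sugar carriers, but the group was set by symbol and not all of its members carry nucleotide sugars. The metal ion carriers had 10 of 16 at that mean, the inorganic ion carriers 6 of 38, and the fatty acid carriers of slc27 all 4. Slc27a2a, a very long chain acyl-CoA synthetase and fatty acid transporter, averaged 367 FPKM.

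A list of 35 carriers known from liver physiology was sought among named genes only. It was matched to 21 genes, of which 12 reached a mean of 1 FPKM. Among those that did not, the ornithine carrier slc25a15a averaged 0.169 FPKM, the monocarboxylate carrier slc16a1a 0.0170 FPKM and the large neutral amino acid carrier slc7a5 0.0103 FPKM, and the organic anion carriers slc22a7a and slc22a7b.1 were listed at 0 throughout. The glucose carrier slc2a2, the aspartate and glutamate carrier slc25a13 and the bile acid importer slc10a1 were among the carriers not analysed here. The threshold of 1 FPKM fell between near neighbours, with slc25a47b at 1.03, slc43a3b at 1.05 and slc35c1 at 1.06 FPKM just inside and slc25a12 at 0.949, slc25a1a at 0.916 and slc25a25b at 0.856 FPKM just outside.

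Zebrafish keep many carriers as a and b copies. Of the 22 such pairs among the 243 genes, 2 had both copies at a mean of at least 1 FPKM and 9 had a single copy at that level. Slc25a3b averaged 134 FPKM against 0.00923 FPKM for slc25a3a, slc25a25a 62.3 FPKM against 0.856 FPKM for slc25a25b, slc6a6b 13.4 FPKM against 0.0478 FPKM for slc6a6a, and slc30a1a 37.4 FPKM while slc30a1b was listed at 0. The CD98 heavy chains slc3a2a and slc3a2b, which bring slc7 carriers to the cell surface, were the most even pair at 5.82 and 5.98 FPKM. Reads of near-identical copies can be split between them by the authors' assembly, so levels within a pair are uncertain.

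Libraries of the same group were often far apart for these carriers, and the share of all genes that far apart was not counted. The 2 NOR libraries differed by at least 2-fold on the log2(FPKM + 1) scale for 32 of the 93 carriers in HBx,Src(p53-), 20 in Src(p53-), 21 in HBx(p53-) and 34 in WT fish. Slc25a33 showed this most plainly, at 362 and 16.7 FPKM in HBx,Src(p53-) NOR, 63.5 and 148 in Src(p53-) NOR, 303 and 19.8 in HBx(p53-) NOR, and 546 and 164 in WT NOR libraries. Slc38a2 was high in 2 of the same libraries, with 212 and 11.6 FPKM in HBx(p53-) NOR and 158 and 21.2 FPKM in WT NOR libraries. The Src(p53-) FAT library had high values of both, 343 FPKM of slc25a33 and 209 FPKM of slc38a2, against 34.6 and 30.9 FPKM in the Src(p53-) DIO library. High levels of the 2 genes stood together in these 3 libraries, of which 2 were NOR and 1 was FAT. The 3 were picked after their values were seen. Slc25a33 was also high, at 362 FPKM, in an HBx,Src(p53-) NOR library outside these 3.

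The obesity diet was compared with NOR within each type of fish, to ask which carriers responded to it on each genetic background. Fold changes are differences of mean log2(FPKM + 1), which understate the change of low genes, and p-values come from limma with Benjamini-Hochberg adjustment over 33715 genes. Outside HBx,Src(p53-) the 1 DIO and 1 FAT library of a type were fitted as replicates. The spread behind the p-values therefore includes differences between these 2 diets. No carrier of the 93 passed an adjusted p of 0.05 in any type. Over all genes tested, the same threshold called 0.335% in HBx,Src(p53-), 0.0771% in Src(p53-), 0.0237% in HBx(p53-) and 0.0712% in WT fish. Among the 12317 genes at a mean of at least 1 FPKM it called 24, 5, 1 and 1 in the same order. At an unadjusted p under 0.05, 10 of the 93 carriers passed in HBx,Src(p53-), 6 in Src(p53-), 3 in HBx(p53-) and 7 in WT fish, which is 10.8%, 6.45%, 3.23% and 7.53% of them, against 16.2%, 11%, 3.22% and 3.5% of all genes at a mean of at least 1 FPKM. With 2 libraries against 2, an exact permutation test of a single gene could not go below p = 0.333.

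The direction of the carriers was mixed on every background. In HBx,Src(p53-) fish 46 lay above 0 and 47 below, with a median log2 fold change of -0.004 against -0.10 over all genes at a mean of at least 1 FPKM. At least 2-fold differences were higher for 8 carriers (all genes 13%) and lower for 9 (14.7%). In Src(p53-) fish the median was -0.11 against -0.34 over all genes, with 14 carriers at least 2-fold higher (6.17% of all genes) and 11 lower (17.8%). HBx(p53-) fish had a median of -0.13 against -0.04, with 6 carriers higher (4.77%) and 11 lower (6.11%), and WT fish had a median of -0.08 against 0.03, with 6 higher (6.9%) and 14 lower (4.88%). The split depended on the scaling of the libraries. With libraries brought to a common sum of FPKM, HBx,Src(p53-) had 6 carriers higher and 17 lower. Of the 12317 genes at a mean of at least 1 FPKM, 1171 were then higher and 2568 lower. Src(p53-) had 16 carriers higher and 5 lower with the common sum, against 1033 and 1473 of these genes. With quantile normalization Src(p53-) had 17 carriers higher and 4 lower (1236 and 1171 of these genes). WT had 3 higher and 15 lower (770 and 674 of these genes). These scalings moved the median of all genes to -0.31 in HBx,Src(p53-) with the common sum, to -0.14 with the common sum and -0.03 with quantile normalization in Src(p53-), and to 0.09 in HBx(p53-) with the common sum.

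**Figure D2:**
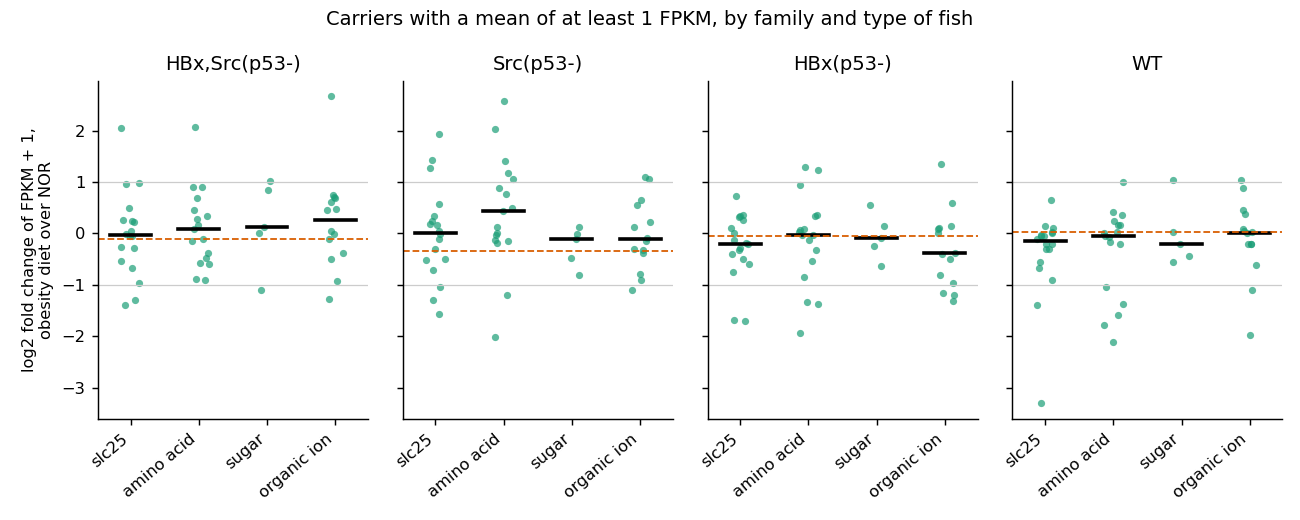
Log2 fold change of FPKM + 1, obesity diet over NOR, of the slc25, amino acid, sugar and organic ion carriers at a mean of at least 1 FPKM in each type of fish; each point is a gene, the black bar is the family median, the dashed line is the median of all genes at that level and the grey lines mark 2-fold. Family medians lie between -0.39 and 0.43, and each family has genes on both sides of 0 in each type.

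The number of carriers whose 2 obesity libraries lay on one side of both NOR libraries was counted as well. Both libraries lay above for 16 carriers in HBx,Src(p53-) (17.2%, all genes 22%), 18 in Src(p53-) (19.4%, all genes 11%), 12 in HBx(p53-) (12.9%, all genes 12.9%) and 8 in WT (8.6%, all genes 12.9%). Both lay below for 20 carriers in HBx,Src(p53-) (21.5%, all genes 29.6%), 22 in Src(p53-) (23.7%, all genes 35.6%), 19 in HBx(p53-) (20.4%, all genes 16%) and 17 in WT (18.3%, all genes 10.1%). No carrier lay above in all 4 types, where 0.0406% of all genes did, and none lay below in all 4, where 0.106% did. The DIO and the FAT library lay on the same side of the NOR mean for 57 carriers in Src(p53-), 57 in HBx(p53-) and 46 in WT, and the 2 DIO libraries of HBx,Src(p53-) did so for 73. The carriers' median was -0.30 in DIO and 0.05 in FAT for Src(p53-), -0.02 in DIO and -0.25 in FAT for HBx(p53-), and -0.29 in DIO and 0.06 in FAT for WT fish. With 1 library of each diet, diet and library cannot be told apart there. The share of all genes with both libraries on the same side of the NOR mean was not counted.

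Among the mitochondrial carriers of HBx,Src(p53-) fish, 5 of 18 (27.8%) lay below both NOR libraries, near the 29.6% of all genes, and 1 (5.56%) above (all genes 22%). The family median was -0.03, and it was -0.29 with the common sum and -0.01 with quantile normalization. Slc25a20, the acylcarnitine carrier, was at 127 and 123 FPKM in DIO libraries, against 250 and 241 FPKM in NOR libraries (log2 fold change -0.97, adjusted p = 0.508). The oxoglutarate and malate carrier slc25a11 was at 50.8 and 44.4 FPKM in DIO, against 113 and 123 FPKM in NOR libraries (-1.29, adjusted p = 0.341). The groups did not overlap for either gene, and the replicates lay close together. Slc25a27, an uncoupling protein homologue known mainly from brain in mammals, was at 3.83 and 2.20 FPKM in DIO, against 9.55 and 9.07 FPKM in NOR libraries (-1.39, SE 0.84, adjusted p = 0.601). Slc25a28 had the largest positive difference of the family, at 393 and 633 FPKM in DIO, against 360 and 39.4 FPKM in NOR libraries (2.05), with the second NOR library far below the other 3. Leaving out that library moved the family median to -0.37. Leaving out the first NOR library moved it to 0.36, with slc25a28 then set against its low NOR library alone.

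In Src(p53-) fish the same family had a median of 0.02, with 4 carriers (22.2%) above and 4 below both NOR libraries (all genes 11% and 35.6%). The median was -0.34 without the first NOR library and 0.16 without the second. With the common sum it was 0.18 and with quantile normalization 0.30. Slc25a11 and slc25a27 again lay below. Slc25a11 was at 60.2 FPKM in DIO and 63.3 FPKM in FAT, against 120 and 197 FPKM in NOR libraries (-1.30), and slc25a27 at 2.26 and 3.50 FPKM, against 6.80 and 15.3 FPKM (-1.56, SE 0.84, adjusted p = 0.608). On the other side, the calcium-regulated ATP-magnesium and phosphate carrier slc25a25a was at 58.9 FPKM in DIO and 71.9 FPKM in FAT, against 8.72 and 29.7 FPKM in NOR libraries (1.94, SE 1.18, adjusted p = 0.665). The iron importer slc25a28 was at 337 and 274 FPKM, against 87.7 and 142 FPKM (1.44). Slc25a20 differed between the diets, with 624 FPKM in DIO and 197 FPKM in FAT, against 226 and 247 FPKM in NOR libraries, so that its DIO library was the highest of all 16 and its FAT library lay below both NOR libraries.

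The non-carriers of Src had no slc25 gene at least 2-fold higher on the obesity diet (all genes 4.77% in HBx(p53-) and 6.9% in WT fish). In HBx(p53-) fish the median was -0.20, and its sign turned on 1 library, at -0.59 with DIO left out and 0.24 with FAT left out. Slc25a25a was at 36.2 FPKM in DIO and 12.7 FPKM in FAT, against 54.1 and 94.3 FPKM in NOR libraries (-1.68, SE 1.18, adjusted p = 1.00), the opposite side from Src(p53-) fish. Slc25a43 was at 1.01 and 1.07 FPKM, against 10.5 and 2.85 FPKM (-1.70, SE 0.92). In WT fish the median was -0.16, and 4 carriers (22.2%) lay below both NOR libraries and none above (all genes 10.1% and 12.9%). Slc25a33 was at 85.6 FPKM in DIO and 9.70 FPKM in FAT, against 546 and 164 FPKM in NOR libraries (-3.31, SE 1.69, adjusted p = 1.00), the largest difference of any carrier in the 4 types. Slc25a5 itself was at 11180 and 7642 FPKM, against 14791 and 12311 FPKM (-0.55), below both NOR libraries in WT alone of the 4 types.

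**Figure D3:**
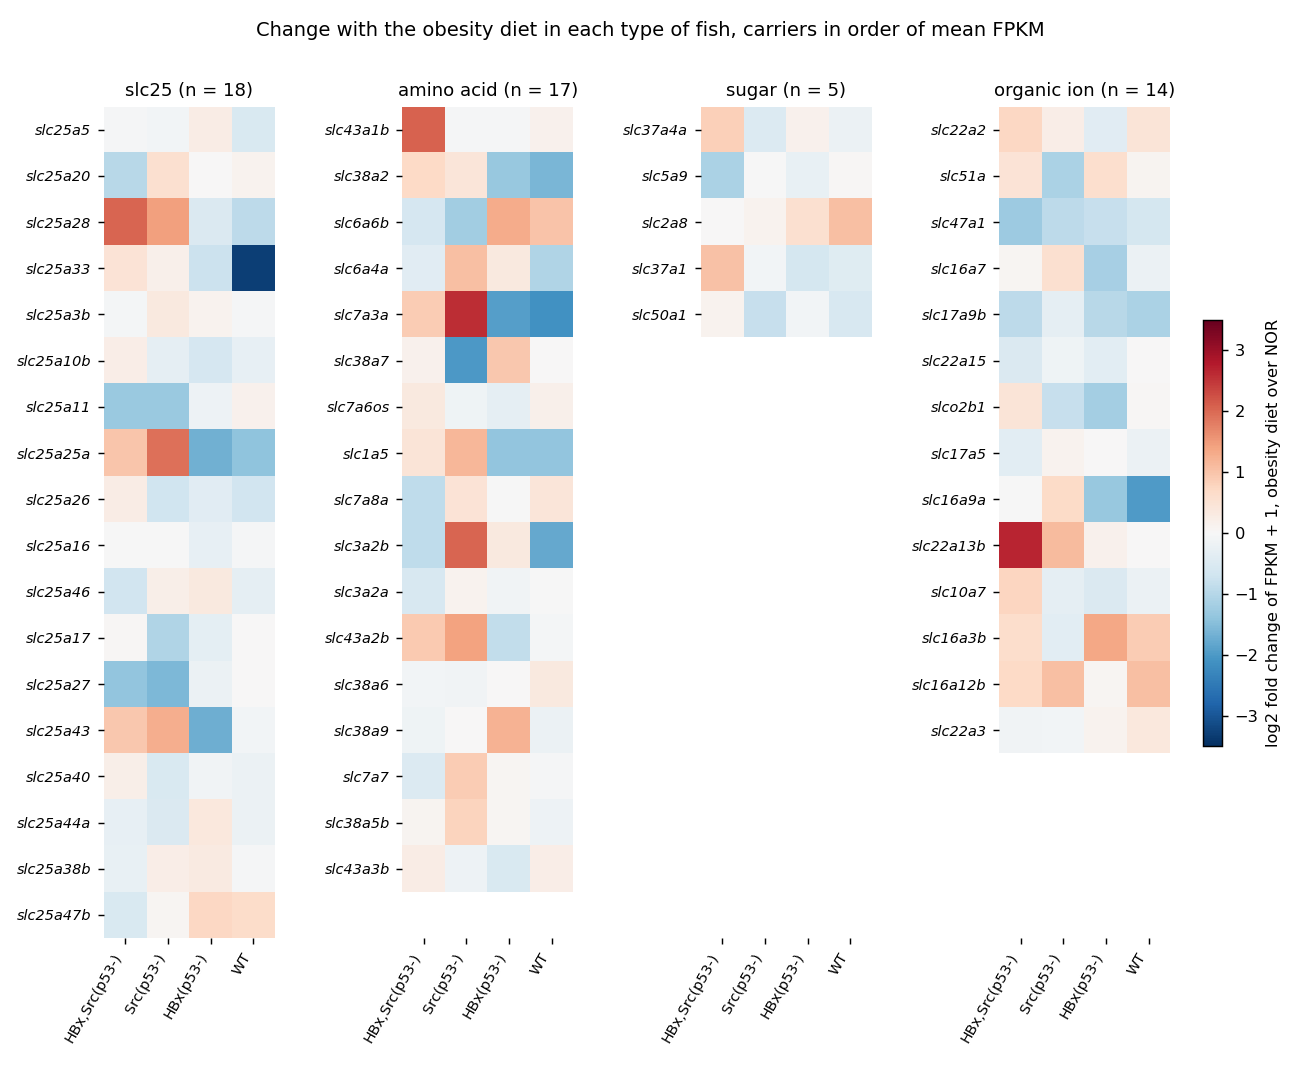
Log2 fold change of FPKM + 1, obesity diet over NOR, in the 4 types of fish (columns) for the 18 slc25, 17 amino acid, 5 sugar and 14 organic ion carriers at a mean of at least 1 FPKM (rows, in order of mean FPKM); red is higher and blue lower on the obesity diet. Few rows keep one colour: slc25a11 and slc25a27 are blue in the 2 Src-carrying types and pale in the others, and slc7a3a is red in the 2 Src-carrying types and blue in the others, with no adjusted p under 0.05.

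The amino acid carriers had their highest median in Src(p53-) fish. There it was 0.43, 7 of 17 (41.2%) lay above both NOR libraries (all genes 11%) and 2 (11.8%) below (all genes 35.6%), and 5 (29.4%) were at least 2-fold higher (all genes 6.17%), but none passed the adjusted test. The family was set by symbol, and these 5 include slc6a4a (1.07), a serotonin transporter and not an amino acid carrier. Slc7a3a, a carrier of arginine, lysine and ornithine, was at 17.3 FPKM in DIO and 24.8 FPKM in FAT, against 2.10 and 3.29 FPKM in NOR libraries (2.57, SE 1.06, adjusted p = 0.564). The CD98 heavy chain slc3a2b was at 8.56 and 9.57 FPKM, against 0.829 and 2.32 FPKM (2.03, SE 0.73, adjusted p = 0.557), while its copy slc3a2a differed by 0.13. Slc1a5, the glutamine and serine exchanger ASCT2, was at 4.45 and 9.03 FPKM, against 1.95 and 2.65 FPKM (1.17). The 2 carriers below both NOR libraries were slc38a7 and the taurine carrier slc6a6b. Slc38a7, a lysosomal exporter of glutamine and asparagine in mammals, was at 2.63 FPKM in both obesity libraries, against 19.4 and 9.41 FPKM in NOR libraries (-2.01, SE 0.69, adjusted p = 0.528), and slc6a6b at 5.30 and 12.0 FPKM, against 22.4 and 17.6 FPKM (-1.21, adjusted p = 0.581). The family median of Src(p53-) fish ranged from 0.07 to 0.90 with each library left out in turn. Exocrine pancreas markers summed to 23.7 and 26.7 FPKM in the obesity libraries and 5.36 and 17.3 FPKM in the NOR libraries of these fish, and their part in the values was not tested.

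Elsewhere the family medians were 0.09 in HBx,Src(p53-), -0.03 in HBx(p53-) and -0.04 in WT fish, each of the opposite sign with the common sum (-0.05, 0.16 and 0.02). With single libraries left out they ranged from -0.07 to 0.36, from -0.15 to 0.22 and from -0.09 to 0.10 in the same order of types. In WT fish 5 of 17 (29.4%) were at least 2-fold lower (all genes 4.88%) and 1 (5.88%) higher (all genes 6.9%). These 5 again include slc6a4a (-1.05). HBx(p53-) fish had 3 (17.6%) lower (all genes 6.11%) and 2 (11.8%) higher (all genes 4.77%). In HBx(p53-) fish slc7a3a was at 2.57 FPKM in DIO and 1.35 FPKM in FAT, against 10.6 and 9.54 FPKM in NOR libraries (-1.94, SE 1.06, adjusted p = 1.00), and slc1a5 at 2.00 and 1.49 FPKM, against 4.88 and 7.61 FPKM (-1.38). The taurine carrier slc6a6b was at 9.60 and 21.9 FPKM, against 3.95 and 7.18 FPKM (1.29, SE 0.60, adjusted p = 0.995). In WT fish slc3a2b was at 3.26 FPKM in DIO and 2.64 FPKM in FAT, against 13.3 and 11.8 FPKM in NOR libraries (-1.78, SE 0.73, adjusted p = 1.00), again without slc3a2a, which differed by -0.001. Slc7a3a in WT fish was set by a single library, at 0.860 and 4.48 FPKM on the obesity diet, against 57.5 and 2.24 FPKM in NOR libraries. In HBx,Src(p53-) fish only slc43a1b passed 2-fold, at 383 and 368 FPKM in DIO, against 160 and 48.6 FPKM in NOR libraries (2.08, SE 0.58, adjusted p = 0.210). It is the most abundant carrier of the family, and its 2 DIO values were the highest of the 16 libraries. Without the first NOR library its log2 fold change was 2.93, set against the NOR library at 48.6 FPKM alone. The gene slc7a6os, counted here by its symbol, lies opposite a carrier gene and encodes no carrier; whether counting used strand is not stated, and it showed no 2-fold difference in any type.

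The 5 sugar carriers had medians near 0 with all libraries kept. These were 0.12 in HBx,Src(p53-), -0.10 in Src(p53-), -0.09 in HBx(p53-) and -0.21 in WT fish, and with the common sum they were -0.05 in HBx,Src(p53-) and 0.13 in Src(p53-) fish. With single libraries left out they ranged from -0.14 to 0.38 in HBx,Src(p53-) and from -0.48 to 0.37 in HBx(p53-) fish. The range was -0.755 to -0.026 in Src(p53-) and -0.374 to -0.054 in WT fish. With quantile normalization the Src(p53-) median was 0.264. Slc37a4a, the glucose 6-phosphate carrier, was at 555 and 548 FPKM in DIO libraries of HBx,Src(p53-) fish, against 364 and 262 FPKM in NOR libraries (0.84, adjusted p = 0.453), without overlap. Slc5a9 lay on the other side in the same fish, at 4.87 and 6.21 FPKM, against 9.70 and 17.1 FPKM (-1.10). The intracellular glucose carrier slc2a8 was at 6.31 FPKM in DIO and 8.83 FPKM in FAT, against 4.43 and 2.09 FPKM in NOR libraries of WT fish (1.05, unadjusted p = 0.0227 by limma), which did not pass after adjustment.

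Among organic ion carriers, slc22a13b had the smallest p of all 93 carriers in any diet comparison within a type. This relative of human OAT10, a carrier of organic anions such as urate and nicotinate, was at 7.32 and 13.6 FPKM in DIO libraries of HBx,Src(p53-) fish, against 0.562 and 0.927 FPKM in NOR libraries (2.67, SE 0.61, adjusted p = 0.127). In Src(p53-) fish it was at 3.69 and 5.15 FPKM, against 1.55 and 1.45 FPKM, also without overlap, while obesity and NOR libraries overlapped in HBx(p53-) and WT fish. The extruder slc47a1 lay below in HBx,Src(p53-) fish, at 17.4 and 17.3 FPKM in DIO, against 58.8 and 31.7 FPKM in NOR libraries (-1.27). Of the 14 carriers of the family, 6 (42.9%) lay above both NOR libraries (all genes 22%) and 2 (14.3%) below (all genes 29.6%) in these fish. The median of 0.26 was 0.04 with the common sum and -0.07 without the second NOR library. Hepatocyte markers summed to 25770 and 40644 FPKM in these DIO libraries, against 15177 and 14291 FPKM in the NOR libraries, and this lay in the fibrinogen gene fgg. Without fgg the sums were 6267 and 7968 FPKM in DIO, against 6303 and 6941 FPKM in NOR libraries.

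In the other types the organic ion medians were -0.12 in Src(p53-), -0.39 in HBx(p53-) and 0.02 in WT fish. The first was 0.07 with the common sum and the last -0.05 with quantile normalization. The HBx(p53-) median was -0.20 with the common sum and -0.22 with quantile normalization. In WT fish 3 of 14 (21.4%) lay below both NOR libraries (all genes 10.1%) and 0 above (all genes 12.9%). HBx(p53-) fish had 3 (21.4%) below (all genes 16%) and 1 (7.14%) above (all genes 12.9%). Src(p53-) fish had 2 (14.3%) below (all genes 35.6%) and 2 above (all genes 11%). Leaving out FAT gave a Src(p53-) median of -0.37, leaving out DIO gave 0.13, and the WT median was -0.29 without the FAT library. Slc16a3b, relative of a lactate exporter, was at 4.97 FPKM in DIO and 0.593 FPKM in FAT, against 0 and 0.470 FPKM in NOR libraries of HBx(p53-) fish (1.35, SE 0.99), with the DIO library carrying most of the difference. Slc16a9a, whose human relative carries carnitine, was at 2.47 FPKM in DIO and 2.25 FPKM in FAT, against 11.5 and 13 FPKM in NOR libraries of WT fish (-1.98, SE 0.66, adjusted p = 1.00), where replicates were close and the groups far apart.

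Carriers of nucleosides, metals and fatty acids and the slc35 genes held several of the larger differences. Slc29a4a, a relative of a human monoamine and nucleoside transporter, was at 9.19 FPKM in DIO and 16.1 FPKM in FAT, against 0.412 and 1.93 FPKM in NOR libraries of HBx(p53-) fish (2.70, SE 1.07, adjusted p = 0.995). In WT fish it was at 3.01 and 21.5 FPKM, against 0.176 and 1.74 FPKM (2.40, SE 1.07, adjusted p = 1.00). Its obesity libraries lay above in these 2 types and overlapped NOR libraries in the 2 Src-carrying types. Slc31a2, a copper carrier, was at 37.7 and 38.0 FPKM in DIO, against 16.2 and 12.1 FPKM in NOR libraries of HBx,Src(p53-) fish (1.38, adjusted p = 0.333), and at 23.8 and 29.2 FPKM, against 6.38 and 19.4 FPKM, in WT fish (1.16, SE 0.49). Slc49a4 was at 2.71 and 4.30 FPKM, against 1.19 and 0.515 FPKM, in WT fish (1.28, SE 0.54).

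Metal ion carriers as a group lay low in Src(p53-) fish, where 9 of 10 were below 0 and the median was -0.57, beside -0.34 over all genes. Both obesity libraries lay below NOR for 6 of the 10, against 35.6% of all genes. The group median was -0.36 with the common sum, -0.23 with quantile normalization and -0.31 without the FAT library. Of the slc35 genes, 4 of 13 (30.8%) were at least 2-fold lower in WT fish (all genes 4.88%) and 0 higher (all genes 6.9%). In HBx(p53-) fish 6 of these 13 (46.2%) lay below both NOR libraries (all genes 16%) and 0 above (all genes 12.9%). The 6 inorganic ion carriers of HBx,Src(p53-) fish had a median of -0.89. At least 2-fold, 3 of them were lower (all genes 14.7%) and 0 higher (all genes 13%). These groups were picked after their values were seen. Fatty acid carriers gave single differences. Slc27a6, a fatty acid transporter known from heart in human, was at 1.57 FPKM in DIO and 2.67 FPKM in FAT, against 10.4 and 15.4 FPKM in NOR libraries of Src(p53-) fish (-2.15, SE 1.46, adjusted p = 0.713). In HBx(p53-) fish its DIO and FAT libraries differed from the NOR mean by -1.65 and -3.04 on the log2 scale. There the first NOR library differed from the second by -5.20. In WT fish DIO and FAT differed from the NOR mean by -1.84 and 1.67. Slc27a2a was at 113 and 330 FPKM, against 544 and 510 FPKM, in HBx(p53-) fish (-1.44), and slc27a1a at 13.3 and 13.5 FPKM, against 38.6 and 34.0 FPKM, in HBx,Src(p53-) fish (-1.37, adjusted p = 0.250).

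Of the slc35 genes in HBx,Src(p53-) fish, slc35f2 was at 42.3 and 29.5 FPKM in DIO, against 13.7 and 0.445 FPKM in NOR libraries (2.98, SE 0.92, adjusted p = 0.253). Slc35b1, an endoplasmic reticulum ATP and ADP exchanger in human, was at 1.59 and 0.794 FPKM, against 11.1 and 4.69 FPKM (-1.95, SE 0.60, adjusted p = 0.259). The sodium and proton exchanger slc9a8 was at 5.95 and 10.7 FPKM, against 46.1 and 15.3 FPKM (-1.62, SE 0.85, adjusted p = 0.523). None of these groups overlapped, but the first NOR library was above the second for each of the 3 genes. Without that first library slc35f2 differed by 4.65, set against the NOR library at 0.445 FPKM alone.

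Below the mean of 1 FPKM a single carrier passed the adjusted test, and it is named because it did. Slc13a1, a sulfate carrier, was listed at 0 in both obesity libraries of HBx(p53-) fish, against 0.766 and 1.08 FPKM in NOR libraries (-0.94, SE 0.11, adjusted p = 0.0227). Its mean over all libraries was 0.133 FPKM, it was listed at 0 in 13 of the 16 libraries, and an exact 0 in such a table can be a failed estimate.

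The common effect of the obesity diet over the 4 types, from a model with type and diet, gave no call among the 93 carriers or among all genes (0.0%). An unadjusted p under 0.05 was reached by 7 carriers (7.53%, all genes 6.41%), 2 with a positive and 5 with a negative difference, and every adjusted p was at least 0.822. Slc29a4a had the largest positive difference, with 0.314, 7.48 and 30.2 FPKM (lowest, median and highest) in 8 obesity libraries, against 0.176, 1.27 and 5.88 FPKM in 8 NOR libraries (1.77, SE 0.52). Slc22a13b had 1.04, 4.42 and 13.6 FPKM, against 0.562, 1.50 and 5.22 FPKM (0.98), and slc2a8 5.45, 7.99 and 10.3 FPKM, against 2.09, 5.53 and 9.17 FPKM (0.44). The ranges of obesity and NOR libraries overlapped for all 3 genes. On the other side, slc35b1 had 0.794, 2.24 and 7.17 FPKM, against 1.21, 5.54 and 11.1 FPKM (-1.02), slc47a1 had 15.1, 18.3 and 73.1 FPKM, against 28.5, 53.3 and 111 FPKM (-0.90), and the endosomal sodium and proton exchanger slc9a6b had 0.254, 1.48 and 4.24 FPKM, against 1.68, 3.17 and 4.34 FPKM (-0.64). At least 2-fold, 1 carrier was higher and 2 were lower (all genes 1.27% and 1.44%). With either other scaling 2 carriers were higher and none lower. Of the 12317 genes at a mean of at least 1 FPKM, 191 were higher and 136 lower with the common sum. With quantile normalization 207 of these genes were higher and 119 lower. Family medians of the common effect were -0.11 for slc25, 0.00 for amino acid, -0.04 for sugar and -0.09 for organic ion carriers, beside -0.10 over all genes, and the sugar median was 0.01 with the common sum. With single libraries left out, the amino acid median ranged from -0.07 to 0.10 and the sugar median from -0.26 to 0.13.

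The diet effect in Src carriers (HBx,Src(p53-) and Src(p53-)) was then set against that in non-carriers (HBx(p53-) and WT), from the same 16 libraries, to ask whether the response to the obesity diet differed with Src. All Src carriers were p53 mutant while the WT libraries among the non-carriers were not, and the obesity libraries were 3 DIO and 1 FAT in Src carriers and 2 DIO and 2 FAT in non-carriers, so Src, p53 and the mix of diets cannot be told apart fully in this and the next comparison. No carrier passed the adjusted test, which called 0.0356% of all genes tested and 3 of the 12317 at a mean of at least 1 FPKM. At an unadjusted p under 0.05, 9 carriers had a positive and 3 a negative difference (12.9% together, all genes 15.3%). At least 2-fold, 15 carriers had a positive difference (16.1%, all genes 10.2%) and 8 a negative difference (8.6%, all genes 17.4%), and their median was -0.02 beside -0.23 over all genes, a value that was -0.35 with the common sum and -0.06 with quantile normalization.

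**Figure D4:**
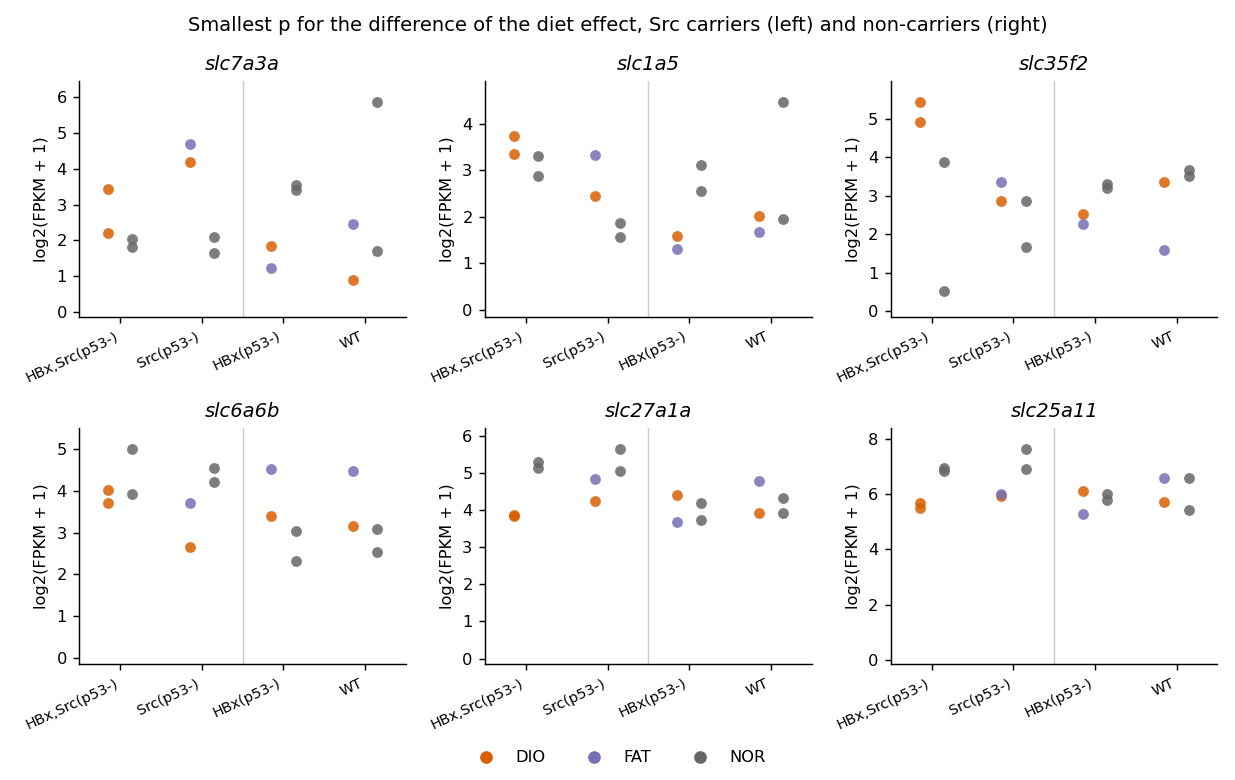
Log2(FPKM + 1) in each of the 16 libraries for the 6 carriers with the smallest p, 3 in each direction, in the difference of the diet effect between Src carriers (left of the grey line) and non-carriers (right); each point is a library, coloured by diet. Slc35f2 has obesity libraries above NOR in HBx,Src(p53-) and Src(p53-) fish and below NOR in HBx(p53-) and WT fish.

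Slc7a3a had the largest difference, 3.76 (SE 1.06, adjusted p = 0.310), and slc1a5 followed at 2.19 (SE 0.67, adjusted p = 0.349). These 2 genes encode carriers that bring cationic amino acids and glutamine into cells. In HBx,Src(p53-) fish slc7a3a was at 3.64 and 9.77 FPKM in DIO, against 2.51 and 3.09 FPKM in NOR libraries, and slc1a5 at 9.18 and 12.4 FPKM, against 8.82 and 6.30 FPKM. Both genes thus lay above NOR in both Src-carrying types and below it in HBx(p53-) fish, but in WT fish a single NOR library set the value, with slc1a5 at 3.02 FPKM in DIO and 2.19 FPKM in FAT, against 21.1 and 2.87 FPKM. Without the second WT NOR library, which had the low values, the lone NOR library left was the high one, and the adjusted p became 0.00394 for slc7a3a and 0.00765 for slc1a5. Over all genes, 674 were called without that library.

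Slc35f2 was the single carrier whose obesity libraries lay above both NOR libraries in the 2 Src-carrying types and below both in the 2 other types, a pattern of 0.309% of all genes. It was at 6.34 FPKM in DIO and 9.33 FPKM in FAT, against 2.19 and 6.26 FPKM in NOR libraries of Src(p53-) fish. In HBx(p53-) fish it was at 4.80 and 3.82 FPKM, against 8.13 and 8.84 FPKM, and in WT fish at 9.17 and 2.00 FPKM, against 11.8 and 10.4 FPKM. The difference of the diet effect was 2.90 (SE 0.92, adjusted p = 0.367). It was 3.74 without the first HBx,Src(p53-) NOR library, which left the low value of 0.445 FPKM as the only NOR value of that type. No carrier had the opposite pattern, which 0.471% of all genes had.

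On the negative side, the taurine carrier slc6a6b differed by -2.05 (SE 0.60, adjusted p = 0.329). It was at 5.30 FPKM in DIO and 12.0 FPKM in FAT, against 22.4 and 17.6 FPKM in NOR libraries of Src(p53-) fish, and at 15.2 and 12.2 FPKM in DIO, against 14.1 and 31.0 FPKM, in HBx,Src(p53-) fish. In WT fish it lay on the other side, at 7.87 and 21.4 FPKM, against 4.76 and 7.55 FPKM. Slc25a11 differed by -1.28 (SE 0.47, adjusted p = 0.426), since its lower level on the obesity diet in both Src-carrying types had no counterpart in HBx(p53-) fish, at 69.2 and 37.9 FPKM, against 62.9 and 54.0 FPKM, or in WT fish, at 51.6 and 95.5 FPKM, against 42.1 and 95.3 FPKM. Slc27a1a differed by -1.25 (SE 0.42, adjusted p = 0.382), with 18.1 and 27.6 FPKM on the obesity diet, against 32.5 and 49.2 FPKM on NOR, in Src(p53-) fish.

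By family, the difference had medians of 0.04 for slc25, 0.19 for amino acid, -0.02 for sugar and 0.36 for organic ion carriers, beside -0.23 over all genes. The slc25 median was -0.09 with the common sum, and the sugar median 0.02 with quantile normalization. The organic ion median was -0.05 without the WT DIO library, the slc25 median -0.15 without the second HBx,Src(p53-) NOR library, and the amino acid median 0.40 with quantile normalization and 0.74 with a pseudocount of 0.1. Metal ion carriers were at -0.47, with 9 of 10 below 0.

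Finally, the level in the 8 libraries of Src carriers was compared with that in the 8 libraries of non-carriers, over both diets. None of the 93 carriers passed the adjusted test, which called 0.219% of all genes tested. At a mean of at least 1 FPKM it called 37 of 12317 genes. At an unadjusted p under 0.05, 9 carriers had a positive and 2 a negative difference (11.8%, all genes 15.6%), and 4 were at least 2-fold higher and 2 lower (all genes 4.6% and 1.25%). With the common sum these were 1 higher and 2 lower, against 460 and 188 of the 12317 genes. With quantile normalization they were 0 higher and 3 lower, against 343 and 234 of the 12317 genes. The median was 0.15, beside 0.20 over all genes. With the common sum these medians were 0.05 and 0.10, and with quantile normalization -0.05 and 0.00. The 65 carriers above 0 and 28 below became 42 above and 51 below with quantile normalization.

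Slc7a7, a light chain that exchanges cationic for neutral amino acids, had the smallest p, with 0, 2.01 and 3.59 FPKM (lowest, median and highest) in Src carriers, against 0, 0.302 and 0.969 FPKM in non-carriers (1.03, SE 0.24, adjusted p = 0.130). All but 1 of the Src carriers' libraries lay above every non-carrier library. The exception was the first Src(p53-) NOR library. With each library left out in turn the difference of slc7a7 ranged from 0.87 to 1.19. Slco2b1, an organic anion transporter, had 4.65, 12.4 and 19.6 FPKM, against 3.61, 5.18 and 17.3 FPKM (0.83, adjusted p = 0.256), and the fatty acid transporter slc27a1a had 13.3, 30.1 and 49.2 FPKM, against 11.9, 15.8 and 26.8 FPKM (0.62, adjusted p = 0.282). The ranges overlapped for both. Ovary markers summed to 0.0222 to 23.2 FPKM in Src carriers, against 0 to 0.861 FPKM in non-carriers, and exocrine pancreas markers to 5.36 to 247 FPKM, against 1.50 to 124 FPKM; their part in these differences was not tested.

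**Figure D5:**
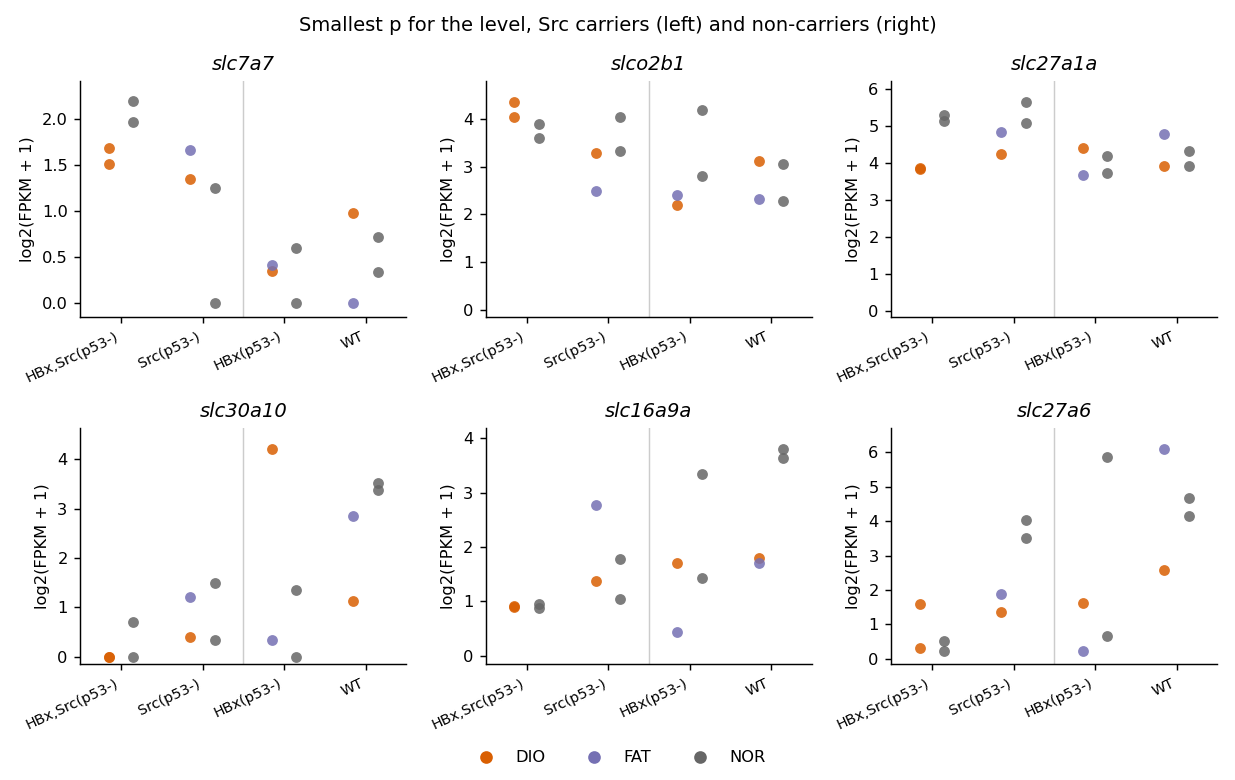
Log2(FPKM + 1) in the 8 libraries of Src carriers (left of the grey line) and the 8 libraries of non-carriers (right) for the 6 solute carriers with the smallest p, 3 in each direction; each point is a library, coloured by diet. For slc7a7 all but 1 of the points on the left lie above every point on the right, and the ranges of all 6 genes overlap.

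The 3 carriers of smallest p in the other direction lay lower in Src carriers. The manganese exporter slc30a10 had 0, 0.284 and 1.80 FPKM in Src carriers, against 0, 3.88 and 17.5 FPKM in non-carriers (-1.58, adjusted p = 0.282). It was listed at 0 in 3 of the 8 and 1 of the 8 libraries. With each library left out in turn its difference ranged from -2.07 to -1.10. Slc16a9a had 0.844, 1.01 and 5.86 FPKM, against 0.364, 2.36 and 13 FPKM (-0.90, adjusted p = 0.331), and slc27a6 had 0.178, 1.79 and 15.4 FPKM, against 0.176, 10.9 and 67.0 FPKM (-1.56, adjusted p = 0.460). In each case the ranges overlapped widely. By family the medians were 0.27 for slc25, 0.15 for amino acid, 0.50 for sugar and 0.14 for organic ion carriers, beside 0.20 over all genes. Above 0 lay 14 of 18 slc25 and all 5 sugar carriers, where the median of all genes also lay above 0. With quantile normalization the family medians were 0.06, -0.04, 0.25 and -0.07, beside 0.00 over all genes.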

How the data were processed

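Liver RNA was sequenced by the authors on an Illumina HiSeq instrument. Per the methods and the submitters' processing notes, reads were checked with FastQC 0.11.5, aligned with HISAT2 2.1.0 to GRCz10, handled with SAMtools 1.7, and assembled and quantified with StringTie 1.3.4d and Ballgown in R 3.5.3. The values deposited by the authors are FPKM per gene. Each of the 16 files equalled its column of the series table. Entries were named by their own symbol or through RefSeq transcripts in a table of assembly GRCz12tu, used for names only.

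FPKM were transformed to log2(FPKM + 1) and fitted with limma 3.58.1 (R 4.3.3) with a trended prior over 33715 genes in 8 groups of type and diet (DIO and FAT together), with Benjamini-Hochberg adjustment; the common effect came from type plus diet. Tables and plots used Python 3.11.15, pandas 2.3.3, numpy 2.4.6 and matplotlib 3.10.9. The fit was tested on simulated data. Genes are reported at a mean of at least 1 FPKM. The genes named are the 3 most abundant per main family, those called, the 3 largest non-overlapping differences in each direction per type, the 3 of smallest p in each direction for the pooled comparisons, carriers opposite between Src carriers and non-carriers, listed liver carriers and discordant a and b copies; other genes given were chosen after their values were seen. The members and lists were chosen with earlier results of these data known. Alternatives were a pseudocount of 0.1, testing only genes at a mean of at least 1 FPKM, a common sum of 1000000 FPKM, quantile normalization, a replicate block, and each library left out. No sequences were used.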

Additional observations from a re-analysis of the deposited data

Results flagged for a closer look

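The measured difference of slc35f2 between obesity diet and NOR had opposite signs in Src carriers and non-carriers. Its obesity libraries lay above both NOR libraries in HBx,Src(p53-) and Src(p53-) fish and below both in HBx(p53-) and WT fish. This pattern was shown by 0.309% of all genes at a mean of at least 1 FPKM. The difference of the diet effect was 2.90 on the log2 scale. The limma test of that difference did not pass after adjustment over all genes (adjusted p = 0.367). Without the first HBx,Src(p53-) NOR library the difference was 3.74, with the low value of 0.445 FPKM left as the only NOR value of that type.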

How the results depend on the processing

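With a pseudocount of 0.1, testing only genes at a mean of at least 1 FPKM, a common sum, quantile normalization or the replicate block, 0 of the 93 carriers were called in each of the 7 comparisons, and all 42 results for single named genes kept their direction. That direction was partly fixed in advance, since the genes were picked for large or non-overlapping differences. Testing fewer genes leaves each fold change as it was, and another pseudocount cannot reverse groups that do not overlap. Leaving out 1 library at a time gave 0 to 4 calls in HBx,Src(p53-), 0 to 2 in WT, 0 to 3 for the difference of the diet effect, 0 to 1 for Src carriers against non-carriers, and 0 to 0 in Src(p53-), HBx(p53-) and the common effect. The 4 calls (slc25a28, slc29a1a, slc35f2 and slc43a1b) came without the first HBx,Src(p53-) NOR library, and the WT calls (slc1a5 and slc7a3a) without the second WT NOR library, which with slc35e4 also gave the 3 calls of the difference (2, slc25a28 and slc35f2, without the first HBx,Src(p53-) NOR library). For Src carriers, slc25a27 was called without the second WT NOR library and slc27a4 without the second HBx,Src(p53-) NOR library. Calls over all genes grew in the same fits, to 508 in HBx,Src(p53-) without its first NOR library against 113, to 642 in WT without its second NOR library against 24, to 674 and 218 for the difference without these WT and HBx,Src(p53-) libraries against 12, and to between 290 and 961 for Src carriers in the fits named here against 74. The remaining NOR library is then assumed to vary like the other groups. Among named genes, slc35f2 reached 4.65 (adjusted p = 0.0149) and slc43a1b 2.93 (adjusted p = 0.0454) without the first HBx,Src(p53-) NOR library, slc30a10 -2.07 (adjusted p = 0.0402) without the HBx(p53-) FAT library, and slc7a7 1.15 (adjusted p = 0.0346) and 1.19 (adjusted p = 0.0152) without the WT DIO and first Src(p53-) NOR library. The cause was not tested.

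Replicate numbers are shared by the DIO and NOR libraries of HBx,Src(p53-) fish only. The correlation of their deviations was 0.149 over 12317 genes, from 2 pairs, so the numbers were not taken to pair the libraries, and the replicate block left 0 carriers called. Without counts, the precision of low FPKM is unknown.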
